A study of Mus musculus with 15 samples.

Results

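Plantaris muscle that had been trained and then detrained was compared with untrained plantaris muscle of the same age, 9 months, across all genes. The comparison used 6 of the 15 libraries of the series, 3 titled 9M PoW+DT (detrained) and 3 titled 9M UT (untrained). Members were taken by their titles and by the matching column names of the count table, and no measured value entered the choice. All 4 groups used here came from adult male HSA-GFP mice, in which a human skeletal actin promoter drives a reverse tetracycline transactivator and a tetracycline response element drives a green fluorescent histone 2B that marks the nuclei of muscle fibres. The detrained mice started at 4 months of age, ran for 8 weeks on a wheel whose load was raised step by step (PoWeR, progressive weighted wheel running), and were then kept for 12 weeks without training. The untrained mice of 9 months were their age-matched controls, and untrained (6M_UT) and trained (6M_PoW) mice of 6 months, with 3 libraries each, gave the estimate of the spread 6 further libraries. RNA was taken from frozen plantaris muscle, so it holds the fibres and every other cell of the muscle, and fewer cells of a type and less RNA per cell cannot be told apart in it.

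The direction of every value below rests on the titles. The treatment field of all 6 libraries names the opposite condition, detrained for those titled untrained and sedentary for those titled detrained. Read by that field, each fold change between the 9-month groups keeps its size and its p and turns its sign. The 6-month libraries used here have no such conflict, so their fold changes would not turn, and the differences between both ages would take other sizes. The labels do not say that the replicates of a group were separate mice, so the p-values reflect the spread among these libraries, which may be technical. The 9-month libraries carry identifiers of 1 series and the 6-month libraries of another, so age and library series cannot be told apart, whereas detrained and untrained libraries share theirs. The labels do not state the time of day at which muscles were taken.

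Skeletal muscle answers a bout of contraction within minutes to hours by switching on immediate early genes, which need no new protein for their induction and many of which encode transcription factors of the AP-1, NR4A, EGR and Krüppel-like families. Calcium and cyclic AMP act on many of them through the transcription factor CREB and its coactivators. Muscle fibres also hold a circadian clock, in which ARNTL (BMAL1) and CLOCK drive the genes of their own repressors, and with them the output factors DBP, TEF and HLF, over the day. Endurance training is known for its slower effects on mitochondria, capillaries, matrix and fibre type, and detraining is the time over which these are expected to reverse.

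The 6 libraries held 18865048 to 22451440 counts, and between 17962 and 18607 of 20406 genes were detected in each. Pearson correlations of log2 levels were 0.980 to 0.985 between libraries of a group and 0.978 to 0.987 between libraries of different groups, so the groups were not set apart by their overall profiles. Genes of the contractile apparatus and of fast fibres, the muscle fibre markers, took a summed 146500 to 186300 CPM, counts scaled to a library total of 1000000, in the 6 libraries, with all 12 of 12 markers tested. Markers of T and B cells (0.799 to 1.495 CPM summed) and of neutrophils (0.522 to 2.15 CPM summed) were near 0 in every one of the 6.

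Few genes separated the groups. Of 14919 genes tested, 3 (0.0201%) were called at an adjusted p under 0.05 by edgeR's quasi-likelihood test, with Benjamini-Hochberg adjustment over all genes, and all 3 were lower in detrained muscle. An unadjusted p under 0.05 was reached by 972 genes (6.52%), with 491 lower (3.29% of those tested) and 481 higher (3.22%). The 3 detrained libraries lay wholly below the 3 untrained ones in CPM for 845 genes (5.66%) and wholly above them for 927 (6.21%). The log2 fold change, detrained over untrained, lay below 0 for 49.1% of the genes and above 0 for 50.9%, with a median of 0.0048. These shares are the background against which the gene lists below are read. The plot of all genes shows most of them close to 0 at every level of expression.

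**Figure D1:**
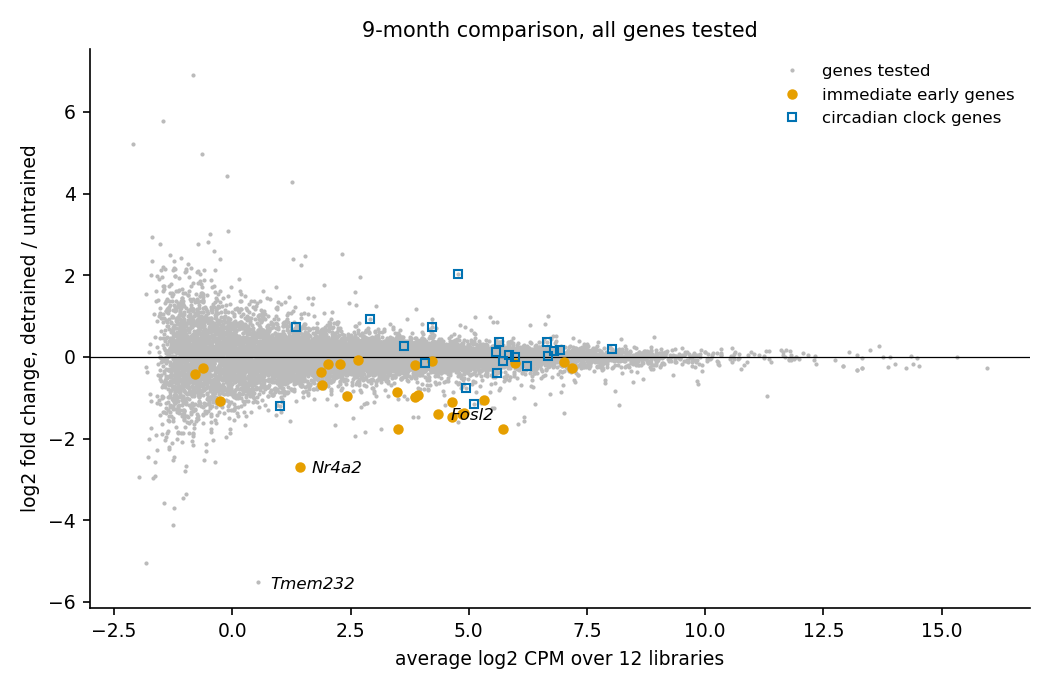
Each grey point is 1 of the 14919 genes tested, with its average log2 CPM over 12 libraries on the x axis and its log2 fold change, detrained over untrained, on the y axis. Filled orange circles are immediate early genes, all 26 of which lie below the line at 0, and open blue squares are circadian clock genes, which lie on both sides of it.

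Tmem232, a gene for a transmembrane protein (chromosome 17, 65255999 to 65540782, minus strand, mm10), had the largest difference of the 3 called genes. It stood at 4.02, 5.51 and 5.86 CPM in untrained and at 0.174, 0.047 and 0.093 CPM in detrained replicates 1 to 3. These are 86, 100 and 119 counts against 4, 1 and 2. All detrained libraries were thus near 0, and the groups lay far apart. The ratio of the summed counts, per effective library total, was 47.9 (95% exact interval 23.0 to 120.2, counting error only). The fitted log2 fold change was -5.53 ± 0.63 (SE), with an edgeR adjusted p of 0.0030. The 6-month libraries held 1 to 13 counts each, so the untrained muscles of 9 months were the group that stood apart from the other 3.

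Genes next to Tmem232 did not follow it. Vapa, which encodes a protein that tethers the endoplasmic reticulum to other membranes and lies on the side of the start of Tmem232, stood at 99.2, 106.6 and 108.0 CPM in untrained and 100.5, 103.0 and 103.3 CPM in detrained muscle. On the other side, the mannosidase gene Man2a1 had a log2 fold change of 0.46 ± 0.20 and the ubiquitin ligase gene Pja2 of -0.08 ± 0.07. Gm18736, a processed pseudogene inside the span of Tmem232, stood at 3.74, 4.08 and 3.10 against 4.53, 1.98 and 1.85 CPM, and these values overlap. Neighbours were chosen by position, after the values of Tmem232 were seen.

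Nr4a2, an orphan nuclear receptor gene of the NR4A family that is induced by cyclic AMP and calcium signals (chromosome 2, 57106830 to 57124003, minus strand), stood at 6.12, 5.45 and 6.996 CPM in untrained muscle. Its detrained values were 1.57, 0.564 and 0.695 CPM. Every detrained library was below every untrained one, by a log2 fold change of -2.70 ± 0.39 (edgeR adjusted p = 0.0209). In the 6-month groups it stood at 1.06 to 1.33 CPM without and 1.13 to 3.10 CPM with training, below all 3 untrained libraries of 9 months. Fosl2, which encodes the AP-1 subunit FRA-2 (chromosome 5, 32135801 to 32157842), stood at 24.0, 36.5 and 37.4 CPM in untrained and 10.8, 12.4 and 14.0 CPM in detrained muscle. Its log2 fold change was -1.40 ± 0.19 (edgeR adjusted p = 0.0209). Untrained 6-month muscle held 14.4 to 17.4 CPM of it, between both groups of 9 months. Trained 6-month muscle held 15.85 to 25.04 CPM of it, a range that overlapped with the untrained libraries of 9 months. Both calls were lost without replicate 2 of 6M_PoW, replicates 2 or 3 of 9M_UT or replicates 2 or 3 of 9M_PoW+DT, that of Nr4a2 also without replicate 1 of 9M_UT and that of Fosl2 without replicate 1 of 9M_PoW+DT. With any 1 library left out, the log2 fold change stayed between -3.29 and -2.44 for Nr4a2 and between -1.58 and -1.29 for Fosl2, with edgeR adjusted p up to 0.163 and 0.121. The call of Tmem232 was kept each time. The plot of the called genes by library shows the same order for Atf3, the next gene by adjusted p.

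**Figure D2:**
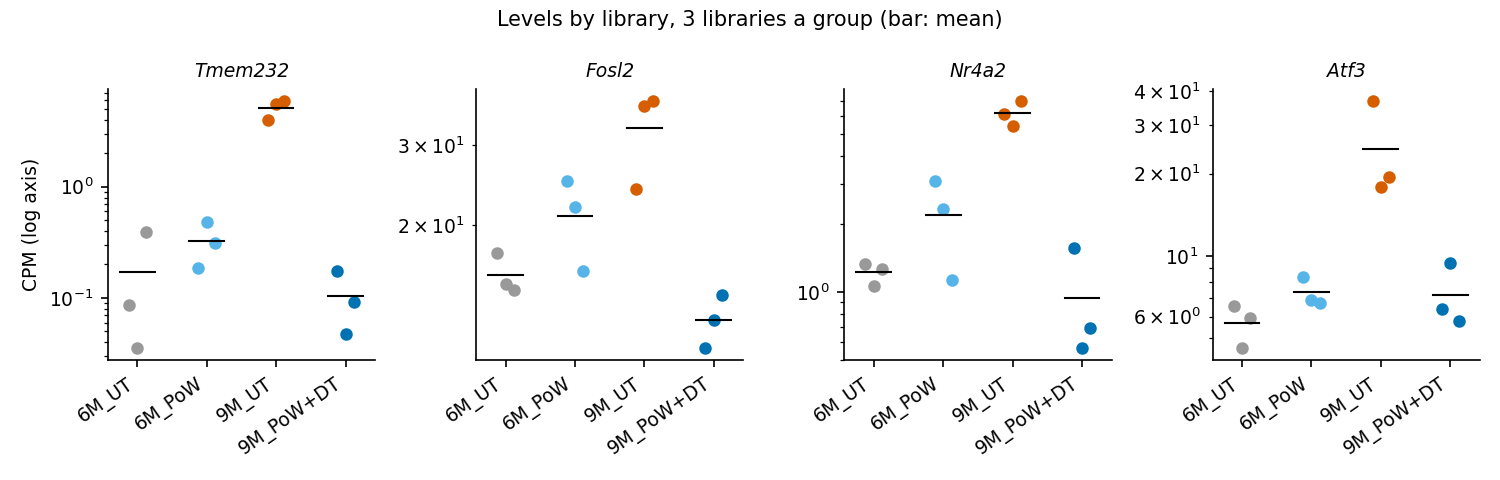
CPM on log axes of the 3 called genes and Atf3 in each library of the 4 groups, with a bar at the mean of the 3 libraries. The 3 untrained libraries of 9 months (9M_UT) lie above all 3 detrained libraries (9M_PoW+DT) in each panel.

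Of the 27 immediate early genes listed, all were in the file and 20 had a promoter in the RefSeq table (GRCm38.p6, the sequence of mm10). The half-site of the cAMP response element, TGACG on either strand within 250 bases upstream of the start, was present in 13 of these 20 genes and in 19.8% of all 27025 genes with a promoter (17.8% of 32851 promoters). A match is a run of letters, not a site shown to be used. The 3 NR4A genes held 4 matches each, the most among them. Of these, Nr4a1 and Nr4a3 were not called, with log2 fold changes of -0.12 ± 0.25 and -0.99 ± 1.04 in a fit of the 9-month libraries alone. Fosl2, which was called, held 0 matches. The stretches that follow are from Nr4a2 and from Btg2, which holds the full palindrome, and are shown because both genes lay lower in detrained muscle without overlap. They were picked after these values were seen. Each is 5′ to 3′ on the minus strand, which is the strand of both genes, with the half-sites in capitals. That of Nr4a2, at chr2:57124090-57124223, covers bases 220 to 87 upstream of the start and holds 4 half-sites. That of Btg2, at chr1:134079294-134079341, covers bases 186 to 139 upstream and holds 2 half-sites on opposite strands that overlap to form the palindrome.
Nr4a2: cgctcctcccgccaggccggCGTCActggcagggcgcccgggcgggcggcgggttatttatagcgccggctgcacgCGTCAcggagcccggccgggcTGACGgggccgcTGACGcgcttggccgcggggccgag
Btg2: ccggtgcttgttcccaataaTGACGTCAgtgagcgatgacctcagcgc

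Of the 27 immediate early genes 26 were tested, of which 2 were called lower and 15 overlapped between the groups. All 26 had a log2 fold change below 0, where 49.1% of all genes did, and the median was -0.89 beside 0.0048 over all genes. An unadjusted p under 0.05 was reached by 11, all lower, beside 3.29% of all genes, and the groups did not overlap for 11, all lower, beside 5.66%. The called members were Nr4a2 and Fosl2. Fosl1 had too few counts to be tested. The members share transcription by the same signals and are not independent of each other. The plot of fold changes shows the members in order.

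**Figure D3:**
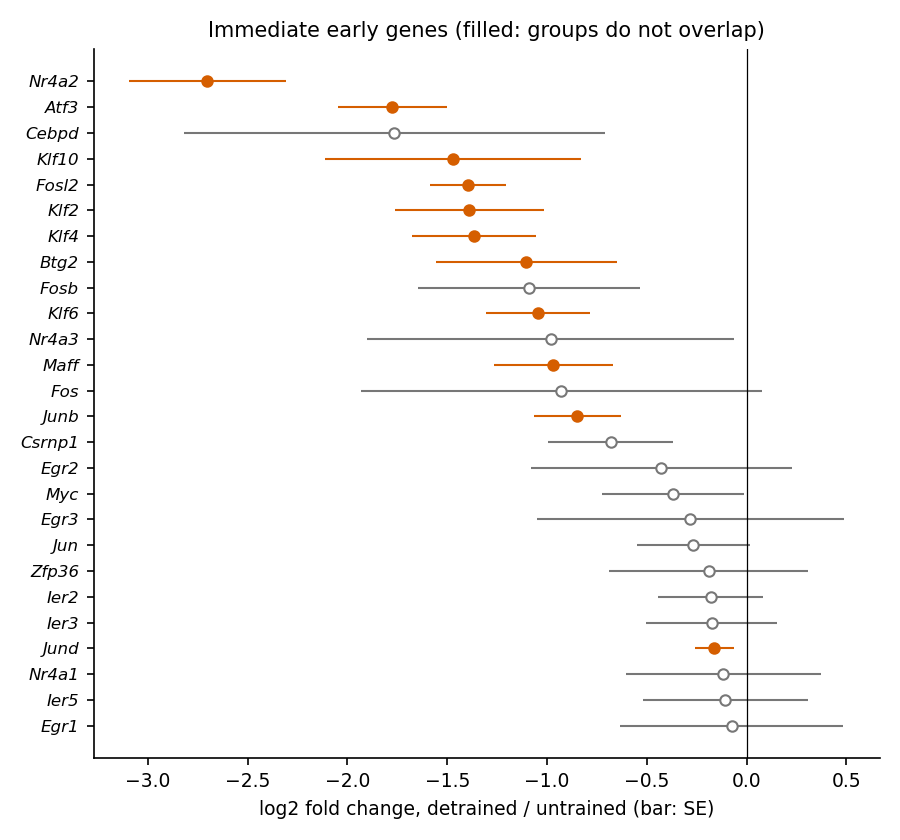
Log2 fold change, detrained over untrained, of the 26 immediate early genes tested, with a bar of 1 standard error on each side. Filled points mark the 11 genes whose 3 detrained libraries lie wholly below the 3 untrained ones, and Nr4a2 has the largest fall.

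Atf3, a stress-induced transcription factor gene of the ATF/CREB family, stood at 36.7, 17.9 and 19.4 CPM in untrained and 6.40, 9.45 and 5.79 CPM in detrained muscle. Its log2 fold change of -1.78 ± 0.27 missed the threshold (edgeR adjusted p = 0.0810). The groups did not overlap, and untrained replicate 1 was the highest of the 6. The 6-month libraries held 4.61 to 8.40 CPM of Atf3, below all untrained libraries of 9 months. Among the Krüppel-like factors, Klf4 stood at 44.0, 47.5 and 52.8 CPM in untrained and 16.97, 26.4 and 12.7 CPM in detrained muscle (log2 fold change -1.36 ± 0.31, edgeR adjusted p = 0.576). At 6 months Klf4 stood at 13 to 35.1 CPM, also below all untrained libraries of 9 months. The following were named after their values were seen. The log2 fold change was -1.39 ± 0.37 for Klf2, which endothelial cells raise under flow, -1.04 ± 0.26 for Klf6 and -1.47 ± 0.64 for Klf10. In none of the 3 did the groups overlap.

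Within the AP-1 family, which dimerises through leucine zippers, members differed in size. Junb stood at 12.5, 19.9 and 16.2 CPM in untrained and 7.05, 8.32 and 11.6 CPM in detrained muscle, a log2 fold change of -0.85 ± 0.22 without overlap. The small MAF gene Maff had -0.97 ± 0.30, and Jund, whose level is otherwise steady, -0.16 ± 0.10, both without overlap. Fos, the classic first responder, spread so widely that its groups overlapped, with 28.03, 30.02 and 10.7 against 4.83, 23.1 and 8.24 CPM. These 4 genes were named after their values were seen, and their edgeR adjusted p ranged from 0.576 to 0.907.

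The antiproliferative gene Btg2 stood at 31.8, 42.1 and 40.8 CPM in untrained and 14.2, 17.1 and 22.1 CPM in detrained muscle. Egr1 and Nr4a1, also induced by contraction, showed little difference, with log2 fold changes of -0.07 ± 0.56 and -0.12 ± 0.49. The depth and spread of these libraries did not allow a difference to be detected for either. When single 9-month libraries were left out in turn, 22 to 26 of the 26 members stayed below 0, with medians from -0.60 to -1.05 and 8 to 10 members at an unadjusted p under 0.05. These counts were added after the data were seen.

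A list of 16 genes described the CREB pathway, with CREB, its coactivators and the kinases and phosphodiesterases that limit it among them. It also held Nr4a2, which is counted among the immediate early genes too, so the lists are not separate. Of the 16 genes, 4 reached an unadjusted p under 0.05 and all 4 were lower (3.29% of all genes). Below 0 lay 10 of the 16, with a median of -0.15. The median was 0.04 without untrained replicate 3 and 0.03 without detrained replicate 1, with 10 and 9 of the 16 genes above 0, so the list as a whole had no steady direction. Beside Nr4a2 the 4 were Sik1, Pde4b and Crtc3. The salt-inducible kinase gene Sik1, itself a CREB target whose product keeps the CREB coactivators out of the nucleus, stood at 29.1, 31.8 and 43.5 CPM in untrained and 10.5, 13.9 and 16.2 CPM in detrained muscle (log2 fold change -1.36 ± 0.41). The phosphodiesterase gene Pde4b, which breaks down cyclic AMP, stood at 117.2, 152.8 and 210.8 against 83.7, 66.0 and 113.0 CPM (-0.87 ± 0.24). Neither overlapped between the groups. The coactivator gene Crtc3 had -0.38 ± 0.14, again without overlap, while the factor Creb1 itself had 0.08 ± 0.11. None but Nr4a2 was called (edgeR adjusted p = 0.601 to 0.672 for these 3).

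Clock genes lay on both sides of 0, with the positive factors lower and output genes higher. Of 21 clock genes tested, 9 did not overlap between the groups (11.9% of all genes), with 5 higher and 4 lower in detrained muscle. The median was 0.13, turned to -0.03 without untrained replicate 1 and -0.05 without detrained replicate 3, and none was called by edgeR. An unadjusted p under 0.05 was reached by 3, all lower, Clock and Npas2 among them, and by 1 without detrained replicate 1. The 4 lower genes without overlap were the positive factors Arntl, Clock and Npas2, and Nfil3, which represses through the same D-box sequence that DBP activates. The 5 higher ones were Dbp, Tef, Per2, Per3 and Nr1d2, all of which ARNTL and CLOCK or DBP drive. Clock and Npas2 follow the rule for named genes, and the other clock genes were named after their values were seen.

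Arntl stood at 36.3, 45.0 and 39.8 CPM in untrained and 21.3, 24.96 and 25.3 CPM in detrained muscle. Npas2, which can stand in for CLOCK, stood at 3.55, 2.59 and 2.51 against 1.31, 1.27 and 1.20 CPM, and Clock at 60.2, 46.3 and 57.2 against 42.1, 39.6 and 43.1 CPM. Nfil3 stood at 46.4, 46.3 and 62.4 against 18.7, 19.9 and 30.7 CPM. On the other arm, the output factor gene Dbp stood at 14.1, 7.22 and 6.01 CPM in untrained and 42.2, 35.02 and 33.9 CPM in detrained muscle, the largest fold among the clock genes (log2 fold change 2.02 ± 1.01, edgeR adjusted p = 0.773). Per3 stood at 12.6, 14.2 and 11.9 against 21.6, 20.03 and 22.6 CPM. Per2 stood at 4.02, 4.57 and 5.52 against 6.53, 10.1 and 10.4 CPM. None of these genes overlapped between the groups, but the gap was narrow for Clock, and untrained replicate 1 held more Dbp than the other untrained libraries.

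Clock genes were spread most widely outside the 9-month groups. The library of untrained replicate 2 at 6 months held 115 CPM of Dbp and 7.44 CPM of Arntl, while the other 2 libraries of that group held 9.21 and 9.70 CPM of Dbp and 37.6 and 35.1 CPM of Arntl. That spread enters the fit of 12 libraries. In a fit of the 6 libraries of 9 months alone, 10 of the 21 clock genes reached an unadjusted p under 0.05 (6.29% of the 14107 genes tested there), and Arntl (log2 fold change -0.76 ± 0.11, edgeR adjusted p = 0.0274) and Per3 (0.73 ± 0.12, edgeR adjusted p = 0.0496) were called. Not every clock gene took part, since Per1 (0.05 ± 0.67), Cry2 (0.13 ± 0.25) and Nr1d1 (0.16 ± 0.35) overlapped between the groups.

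A promoter was found for 17 of the 21 clock genes. The E-box CACGTG, the letters that ARNTL and CLOCK bind, was present on either strand within 250 bases upstream in 5 of them and in 6.86% of all genes with a promoter (6.02% of promoters). The genes with an E-box were Ciart, Bhlhe41, Cry1, Per1 and Tef, and only Tef was among the genes without overlap. Dbp, Per3 and Nr1d2 held 0 E-boxes. The D-box TTATGTAA, which DBP and NFIL3 bind, was present in 1 of the 17 genes, Per3, and in 0.977% of all genes (0.819% of promoters). No motif overlaps another in the stretch printed here. It is shown because Per3 was called in the fit of the 9-month libraries and holds 2 D-boxes, in capitals. It lies at chr4:151044796-151044890 on the minus strand, the strand of the gene, and covers bases 225 to 131 upstream of the start, 5′ to 3′.
Per3: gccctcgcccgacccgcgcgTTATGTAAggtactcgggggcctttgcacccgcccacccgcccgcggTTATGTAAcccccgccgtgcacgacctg

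**Figure D4:**
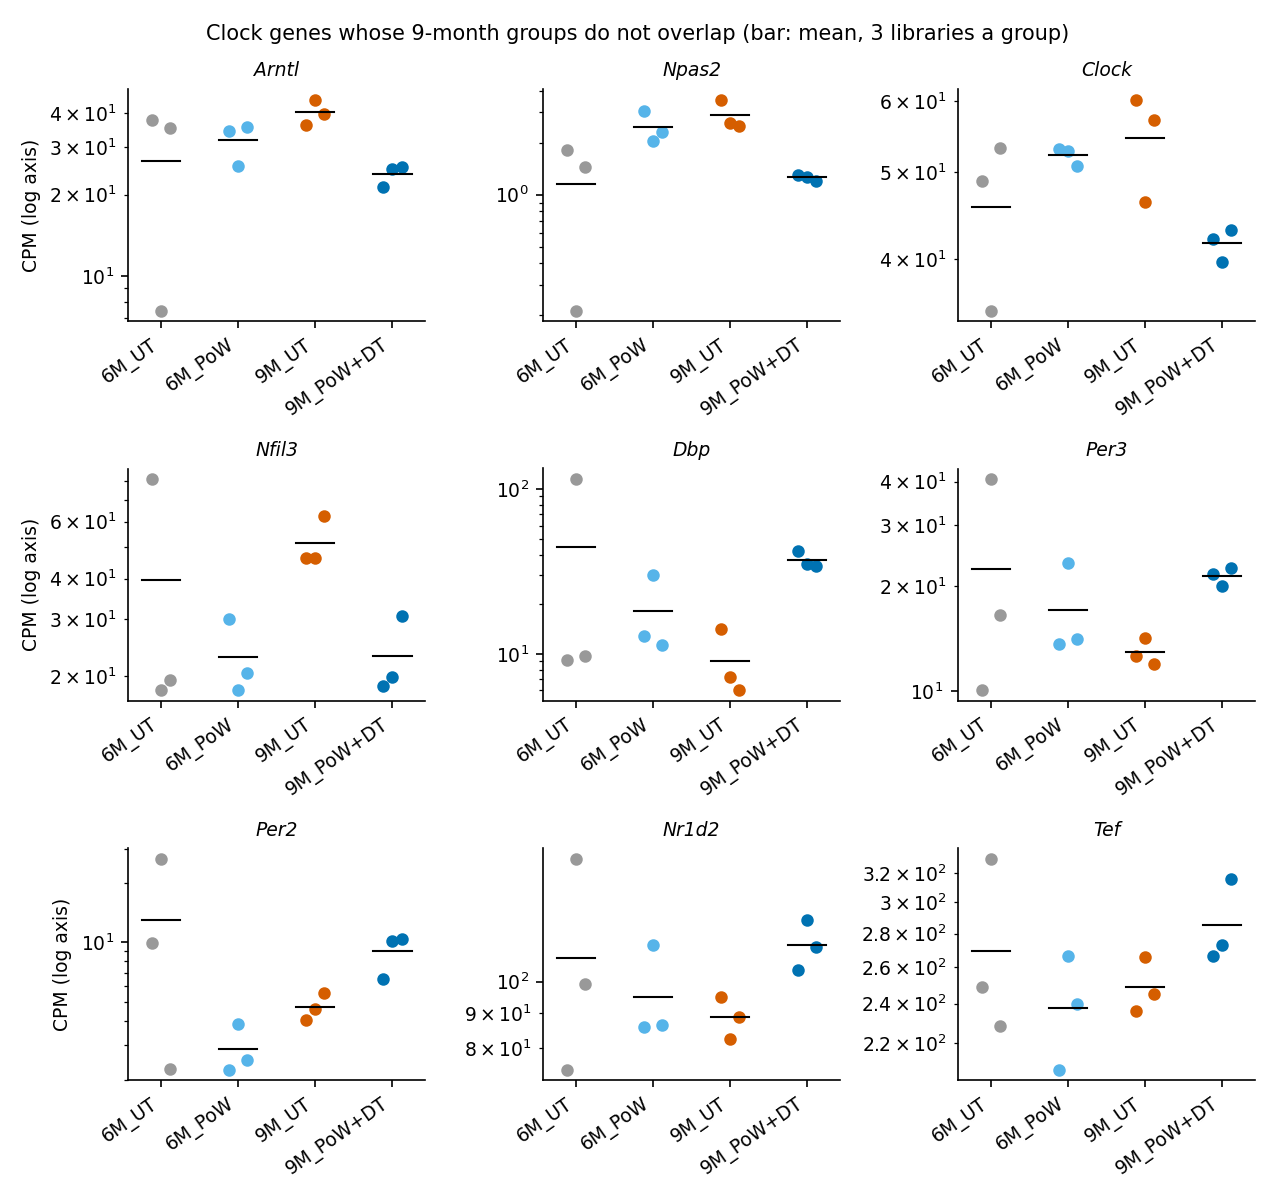
CPM on log axes of the 9 clock genes whose 9-month groups do not overlap, by library, with a bar at the mean of the 3 libraries. Arntl, Npas2, Clock and Nfil3 lie lower and Dbp, Per3, Per2, Nr1d2 and Tef higher in 9M_PoW+DT than in 9M_UT, and 1 library of 6M_UT stands apart from its group in most panels.

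The genes with the smallest unadjusted p among those of moderate level (an average log2 CPM of at least 2), without overlap, were taken in each direction, 10 lower and 10 higher. Fosl2 and Atf3 led the lower ones. The other 8, none of them called (edgeR adjusted p = 0.165 to 0.423), were of different kinds. Apod, a lipocalin of lipid transport, stood at 32.1, 31.1 and 38.5 CPM in untrained and 20.5, 20.7 and 22.7 CPM in detrained muscle. The homeobox gene Six4 stood at 37.7, 40.6 and 37.0 against 25.3, 26.3 and 23.3 CPM. Within both groups these values lay close together. Bcl2l11, which encodes the pro-apoptotic protein BIM, stood at 17.01, 21.8 and 22.7 against 9.36, 6.54 and 6.16 CPM, a log2 fold change of -1.48 ± 0.29.

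Klf7, another Krüppel-like factor, had a log2 fold change of -0.70 ± 0.15 and the phosphate carrier Slc20a1 of -0.93 ± 0.19. Impact, a regulator of the kinase GCN2, had -0.61 ± 0.14. Gimap6, a small GTPase gene of lymphocytes and endothelium, had -1.04 ± 0.23, with 14.5, 18.9 and 9.36 against 8.44, 6.58 and 5.65 CPM. Hmgb1-ps8, a processed pseudogene of Hmgb1, had -1.49 ± 0.27, but its reads may be split with the parent gene and the value is uncertain.

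None of the 10 higher genes was called (edgeR adjusted p = 0.499 to 0.576). Dusp7, a phosphatase that shuts off ERK, stood at 10.5, 11.5 and 9.66 CPM in untrained and 14.6, 22.8 and 22.5 CPM in detrained muscle (log2 fold change 0.92 ± 0.21). Sparc, a matrix glycoprotein of basement membranes, stood at 80.3 ± 7.84 CPM (SD, n = 3) in untrained and 104 ± 5.10 CPM in detrained muscle, and its detrained libraries lay at 100.8 CPM or above. Lama5, a laminin chain of the same membranes, stood at 44.2, 41.3 and 44.2 against 52.4, 51.9 and 63.3 CPM. Mul1, a ubiquitin ligase of the mitochondrial outer membrane, stood at 33.1, 33.7 and 36.1 against 42.0, 42.1 and 42.5 CPM. The detrained libraries of Mul1 hardly differed from each other. Sh2b1, an adaptor of the insulin and leptin receptors, had a log2 fold change of 0.31 ± 0.08.

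Of the remaining higher genes, Pih1d1 had a log2 fold change of 0.44 ± 0.12, Trim16 of 0.34 ± 0.09, Srprb, a subunit of the signal recognition particle receptor, of 0.37 ± 0.10 and Mrpl34, a protein of the mitochondrial ribosome, of 0.39 ± 0.11. Tdg-ps2, a pseudogene of the DNA glycosylase gene Tdg, had 0.86 ± 0.24. Tdg itself stood at 19.2, 21.5 and 17.6 against 20.1, 8.32 and 12.2 CPM, with overlap. Reads of such copies can be split by the counting, and both values are uncertain.

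With the 6 libraries of 9 months alone, edgeR called 18 of 14107 genes (0.128%), 16 lower (0.113%) and 2 higher (0.0142%), and these included the 3 genes called from 12 libraries. The calls outside the rule for named genes were named after their values were seen. Arid5b, a chromatin regulator, stood at 48.0, 57.3 and 62.5 CPM in untrained and 22.3, 26.4 and 27.6 CPM in detrained muscle, a log2 fold change of -1.14 ± 0.12 (edgeR adjusted p = 0.0024). Ddit4l, a brake on the growth kinase mTORC1, stood at 238.5, 289.8 and 286.2 against 188.8, 157.6 and 174.2 CPM (-0.65 ± 0.10, edgeR adjusted p = 0.0274). Abra (STARS), which relays actin state to the factor SRF, stood at 310.3, 311.0 and 374.8 against 213.5, 236.6 and 226.4 CPM (-0.56 ± 0.09, edgeR adjusted p = 0.0384). In all 3 genes the 9-month groups lay apart, but none was called from 12 libraries (edgeR adjusted p = 0.576, 0.703 and 0.646). Untrained 6-month libraries ranged from 18.25 to 43.8 CPM for Arid5b, 120.5 to 263.6 for Ddit4l and 191.8 to 306.1 for Abra.

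Of the immediate early and CREB genes, Btg2 (edgeR adjusted p = 0.0454) and Sik1 (0.0417) joined Nr4a2 and Fosl2 in that fit. Irf2bp2 (-0.76 ± 0.09), Itpkb, which makes an inositol phosphate signal (-0.86 ± 0.13), and Cyren, a regulator of DNA end joining (-1.11 ± 0.17), were also called lower, as were Bcl2l11, Six4, Apod, Hmgb1-ps8 and Arntl. From 12 libraries, none of Btg2, Sik1, Irf2bp2, Itpkb and Cyren was called (edgeR adjusted p = 0.646 to 0.783). The higher calls with the 9-month libraries alone were Per3 and Rpl35a. Rpl35a, a ribosomal protein gene with many copies in the genome, stood at 0.934, 1.21 and 1.23 against 7.88, 5.41 and 6.20 CPM, and the 6-month libraries ranged from 1.17 to 11.3 CPM. Its reads may be split with its copies, and the value is uncertain.

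All 13 protein-coding genes of the mitochondrial genome lay below 0 in detrained muscle, with a median log2 fold change of -0.23. Of these, 9 reached an unadjusted p under 0.05, all lower (3.29% of all genes), and 6 did not overlap between the groups, all lower (5.66%). The 13 genes lie on 1 genome and are not independent of each other, so these counts are not 13 separate results. The respiratory chain subunit gene mt-Co2 stood at 9536, 10470 and 12050 CPM in untrained and 9123, 8593 and 7930 CPM in detrained muscle (log2 fold change -0.32 ± 0.08, edgeR adjusted p = 0.576). mt-Co1 had -0.27 ± 0.08, mt-Nd1 -0.28 ± 0.08 and mt-Co3 -0.26 ± 0.08. Reads of mt-Co2 and mt-Co3 may be split with nuclear copies. The mitochondrial share of all counts was 19.7%, 19.5% and 21.7% in untrained and 18.9%, 18.6% and 16.0% in detrained libraries. Without detrained replicate 3, which had the lowest share, the median over the 13 genes was -0.17 with 5 at an unadjusted p under 0.05, and without untrained replicate 3, which had the highest, it was -0.15 with 4.

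Respiratory chain subunits encoded in the nucleus had small fold changes, most of them above 0. Of 76 tested, 60 lay above 0, where 50.9% of all genes did, with a median of 0.07. An unadjusted p under 0.05 was reached by 7, all higher (3.22% of all genes), and 10 did not overlap, all higher (6.21%). These counts depended on single libraries. Without detrained replicate 1, 43 lay above 0, with a median of 0.02 and 2 at an unadjusted p under 0.05, and that last count was 0 without untrained replicate 3 and 18 without detrained replicate 3. Sdhd, an anchor of complex II, stood at 179.2, 160.8 and 153.0 CPM in untrained and 216.7, 203.8 and 170.1 CPM in detrained muscle (log2 fold change 0.26 ± 0.09). Atp5e of the ATP synthase had 0.21 ± 0.08, and Ndufb3 and Ndufb11 of complex I had 0.23 ± 0.09 and 0.17 ± 0.07. Their edgeR adjusted p ranged from 0.646 to 0.712.

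Genes that express the mitochondrial genome had a median of 0.04 over 23 genes, with 2 at an unadjusted p under 0.05, both higher, and 0 without untrained replicate 3 or without detrained replicate 1. These were Mrpl12, of the mitochondrial ribosome (0.21 ± 0.08), and Esrra, a nuclear receptor of mitochondrial genes (0.19 ± 0.08). Fatty acid oxidation genes had a median of -0.04 over 22 genes, 15 of them below 0 and none at an unadjusted p under 0.05, but the median was 0.06 without detrained replicate 3. The coactivator gene Ppargc1a, a regulator of mitochondrial biogenesis, stood at 49.9, 41.0 and 82.1 CPM in untrained and 44.6, 104.4 and 49.5 CPM in detrained muscle, with overlap.

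Myosin heavy chains, which define the fibre types, did not differ beyond the spread between libraries. The fastest isoform, Myh4, stood at 36350, 54970 and 47580 CPM in untrained and 41480, 37230 and 59270 CPM in detrained muscle (log2 fold change -0.01 ± 0.22). Myh2 had -0.08 ± 0.22. Myh1, of the intermediate fast type, stood at 10350, 8454 and 10720 against 10840, 10970 and 11450 CPM, without overlap (0.17 ± 0.10, edgeR adjusted p = 0.795).

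Slow fibre genes varied most within the groups. The slow myosin gene Myh7 stood at 223.6, 0.496 and 32.9 CPM in untrained and 82.8, 89.3 and 8.57 CPM in detrained muscle. Untrained replicate 1 held the most and untrained replicate 2 the least of the 6, and the slow troponin gene Tnni1 showed the same order of the untrained libraries, at 18.1, 0.661 and 3.15 CPM (named after its values were seen). The list of 19 slow fibre genes had a median of -0.22, which became 0.29 without untrained replicate 1 and 0.04 without detrained replicate 3. The sarcomere gene Myoz2 was the 1 member at an unadjusted p under 0.05, with 90.7, 79.7 and 92.2 against 74.6, 69.2 and 46.8 CPM.

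The 22 fast fibre genes had a median of 0.05 (0.01 to 0.11 with single 9-month libraries left out), with 1 higher and 2 lower at an unadjusted p under 0.05 (0 without detrained replicate 1). Among the lower ones, Cacna1s, the voltage sensor of the fibre, had a log2 fold change of -0.18 ± 0.08. Among 25 glycolysis and glycogen genes 16 lay above 0, with a median of 0.06, and 4 had an unadjusted p under 0.05 (1 without untrained replicate 3 or without detrained replicate 1). The glycolytic enzymes Tpi1 (0.20 ± 0.06), Pgk1 (0.18 ± 0.07) and Eno3 (0.16 ± 0.08) were the higher ones, and Gyg, which primes glycogen, was lower (-0.14 ± 0.06). None of these genes was called by edgeR (adjusted p = 0.605 to 0.758).

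Of 21 genes that respond to stretch or sarcomere stress, 15 lay below 0, with a median of -0.08, and without untrained replicate 3 the median was -0.0044 with 11 below 0. Ankrd1, a titin-associated protein that rises with load, stood at 22.0, 19.3 and 16.9 CPM in untrained and 8.40, 11.2 and 12.0 CPM in detrained muscle (log2 fold change -0.88 ± 0.20, edgeR adjusted p = 0.436). Xirp1, a protein of remodelling sarcomeres, stood at 521.6, 325.6 and 532.0 against 250.2, 271.2 and 257.0 CPM (-0.83 ± 0.23). Both were lower without overlap. At 6 months Ankrd1 stood at 7.12 to 9.64 CPM without and 3.26 to 6.00 CPM with training. Xirp1 stood at 131.8 to 250.2 CPM in the 6-month libraries. For both genes these levels lay below all untrained libraries of 9 months. Embryonic and regeneration genes had a median of -0.47 over 16 genes, 11 below 0, and 2 at an unadjusted p under 0.05 (0 without untrained replicate 2). Of these, Mybph (-1.67 ± 0.55) and the adhesion molecule Ncam1 (-0.50 ± 0.23), which denervated and regenerating fibres carry, were lower without overlap. Myostatin (Mstn), the inhibitor of muscle growth, stood at 72.9, 126.2 and 98.9 against 72.5, 80.2 and 103.7 CPM.

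Genes of atrophy and of the fasting and glucocorticoid response lay mostly below 0, but differed as much within as between the groups. Of 26 atrophy and proteolysis genes, 19 lay below 0 (median -0.19), or 15 without untrained replicate 3 (median -0.06). The ubiquitin ligase gene Fbxo30 (-0.41 ± 0.14) and the mitophagy receptor gene Bnip3 (-0.31 ± 0.12) were lower and Mul1 higher at an unadjusted p under 0.05. Of 23 fasting and glucocorticoid genes, 21 lay below 0 (median -0.30) and none had an unadjusted p under 0.05. Without detrained replicate 1, 14 lay below 0 (median -0.11), and without detrained replicate 3 the median was -0.78. Pdk4, which turns fibres from glucose to fat, stood at 1419, 3027 and 4463 CPM in untrained and 431, 1106 and 3079 CPM in detrained muscle. Ddit4, a target of the glucocorticoid receptor, stood at 12.7, 102 and 130.2 against 3.22, 14.4 and 85.5 CPM. Both were named after their values were seen, and both overlapped.

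Leptin (Lep), the satiety hormone of fat cells, stood at 1.68, 2.04 and 0.591 CPM in untrained and 3.70, 3.06 and 16.9 CPM in detrained muscle. Its log2 fold change was 2.46 ± 0.67 (edgeR adjusted p = 0.576). The groups did not overlap, but detrained replicate 3 held several times the level of any other library. The same library was the highest for the adipokine gene Adipoq (14.5 against 2.27 to 4.79 CPM in the other 5) and the lipid droplet genes Cidec (17.8 against 1.76 to 3.18) and Plin1 (12.4 against 2.07 to 5.78). The 12 adipocyte markers had a median of 0.63, with 8 above 0 and 4 at an unadjusted p under 0.05, all higher, and a median of 0.07 with 1 such gene without detrained replicate 3. That count was also 1 without untrained replicate 3, with a median of 0.50. The 4 markers below 0 were Fabp4, Car3, Pparg and Lipe, named after their values were seen. Fabp4 and Car3, which other cells of muscle also express, had -0.07 ± 0.09 and -0.05 ± 0.12. In a fit of the 9-month libraries alone, Pparg had -0.52 ± 0.38 and Lipe had -0.08 ± 0.21. Detrained replicate 3 was also the library with the lowest mitochondrial share. What part fat tissue had in either was not tested. The plot of fat, slow fibre and fasting genes shows these libraries.

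**Figure D5:**
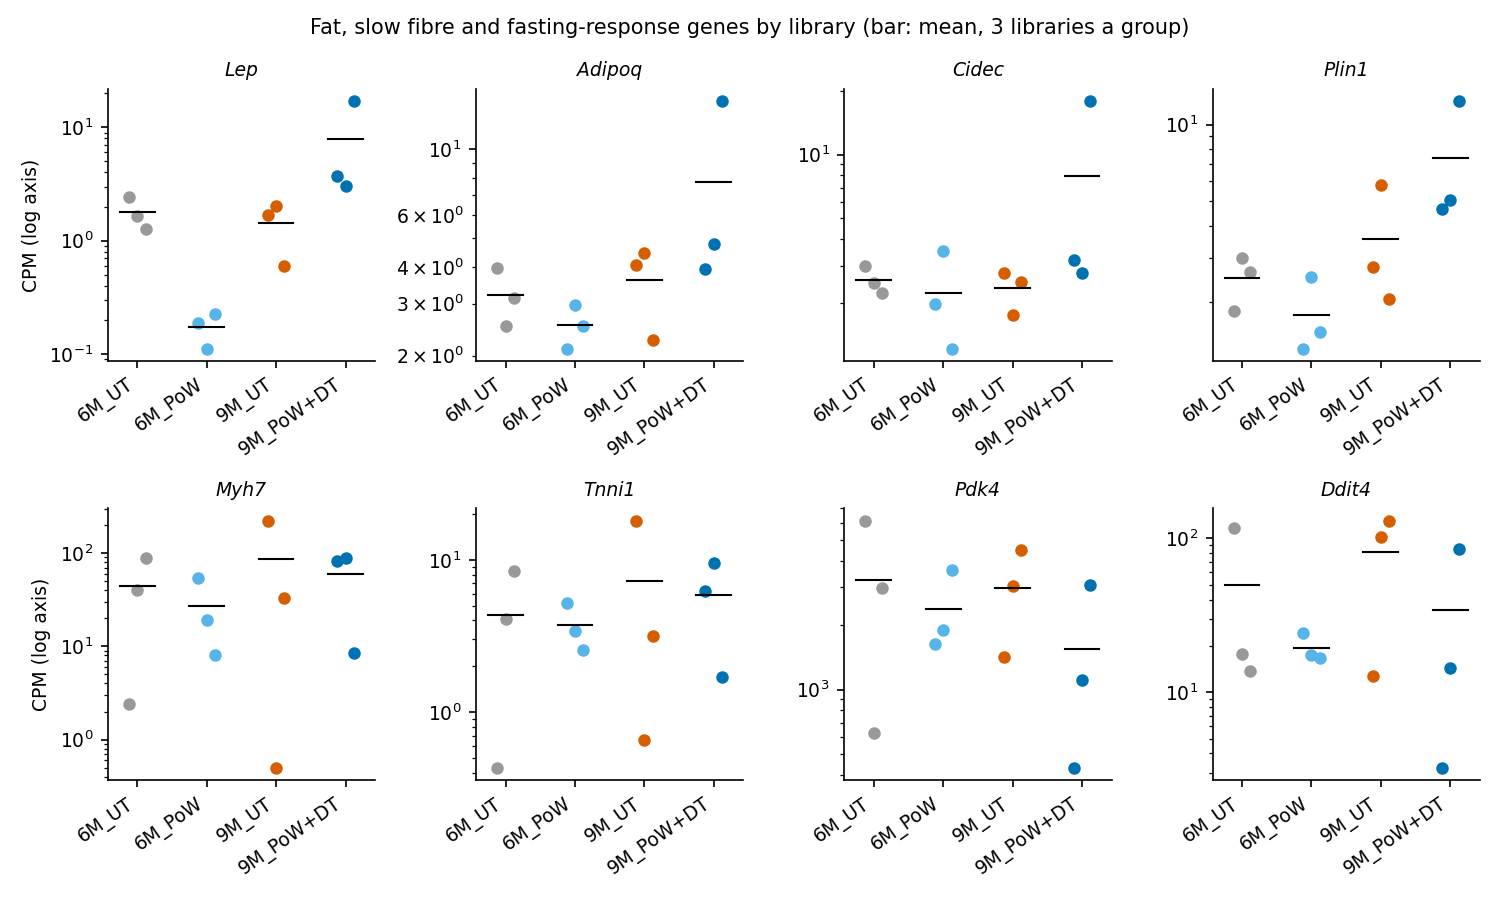
CPM on log axes of 4 fat cell genes, 2 slow fibre genes and 2 fasting-response genes by library, with a bar at the mean of the 3 libraries. Detrained replicate 3 is the highest point for Lep, Adipoq, Cidec and Plin1, and Myh7, Tnni1, Pdk4 and Ddit4 overlap between 9M_UT and 9M_PoW+DT.

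Endothelial markers lay below 0 in 15 of 16 genes, with a median of -0.20, and 3 reached an unadjusted p under 0.05, all lower (3.29% of all genes). That count was 1 without detrained replicate 2 or without detrained replicate 3, and 5 without detrained replicate 1. Flt1, a receptor of vascular endothelial growth factor, stood at 72.4, 78.3 and 78.4 CPM in untrained and 54.9, 66.2 and 58.2 CPM in detrained muscle. The phosphatase gene Ptprb (-0.20 ± 0.08) and the angiopoietin receptor gene Tek (-0.29 ± 0.14) were also lower without overlap. Summed over the list, levels were 503 to 534 CPM in untrained and 414 to 489 CPM in detrained muscle. The growth factor gene Vegfa had 0.05 ± 0.24.

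Collagens and matrix genes had a median of 0.15 over 39 genes, 26 of them above 0. At an unadjusted p under 0.05, 4 were higher and 2 lower. Without untrained replicate 2 the median was 0.06 with 3 such genes, without detrained replicate 1 it was 0.07, and without untrained replicate 3 there was 1 such gene. The higher ones were Sparc above, Col18a1 (0.55 ± 0.23), Col4a1 (0.23 ± 0.10, named after its values were seen) and Thbs4. Other basement membrane genes of the list lay near 0, such as Lamc1 (-0.09 ± 0.08), Lama2 (-0.05 ± 0.21), Nid1 (-0.02 ± 0.11) and Lamb1 (0.09 ± 0.16), also named after their values were seen. The proteoglycan gene Dcn stood at 246.6, 268.7 and 275.2 CPM in untrained and 236.0, 228.3 and 202.8 CPM in detrained muscle (-0.25 ± 0.09), and the protease gene Mmp14 had -0.54 ± 0.23. Markers of fibro-adipogenic progenitors, the matrix-producing cells of muscle, had a median of -0.05 over 14 genes (0.0061 without detrained replicate 3), with Pdgfra lower (-0.32 ± 0.12) and Dpt higher (0.27 ± 0.10). Tendon markers lay above 0 in 11 of 12 genes (median 0.19), but in 5 without untrained replicate 3 (median -0.0048) and in 6 without detrained replicate 1 (median 0.05), with Thbs4 at 0.32 ± 0.14 and overlapping groups, and their sum ranged from 113.3 to 167.8 CPM in untrained and 126.1 to 206.9 CPM in detrained muscle. What part an unequal share of tendon had in the matrix values was not tested.

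The other cell types showed no member past an adjusted p of 0.05 by edgeR. Medians were 0.04 over 15 macrophage and leukocyte markers, 0.10 over 12 pericyte and smooth muscle markers, -0.10 over 12 satellite cell markers and 0.17 over 11 Schwann cell markers. Megf10 of satellite cells was lower (0.981, 1.05 and 0.690 against 0.479, 0.329 and 0.417 CPM), and Ncmap of Schwann cells was higher (0.110 to 0.234 against 0.261 to 1.22 CPM). Red blood cell markers summed to 348 to 1042 CPM without order between the groups. Muscle fibre markers had a median of 0.0057. These medians were small, and with 1 library left out they crossed 0 for macrophages (-0.07 without detrained replicate 2), pericytes (-0.02 without untrained replicate 3), Schwann cells (-0.0034 without untrained replicate 2) and muscle fibres (-0.02 without detrained replicate 3). The denervation and neuromuscular junction list had a median of 0.14 over 20 genes, 13 of them above 0. Without untrained replicate 2 the median was 0.0078, with 10 above 0. At an unadjusted p under 0.05, 1 gene was higher and 1 lower. Agrn, which gathers acetylcholine receptors, was higher (0.40 ± 0.17) with overlapping groups, and Ncam1 was lower (-0.50 ± 0.23) without overlap.

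Further lists had medians near 0, and some crossed it with 1 library left out. The median was 0.0027 for MAP kinase feedback genes without detrained replicate 3, -0.00081 for ribosomal proteins and 0.14 for muscle-secreted signals without untrained replicate 1, and 0.04 for the DNA methylation genes described below without untrained replicate 2. MAP kinase feedback genes had a median of -0.08 over 14 genes, and Spred2, an inhibitor of that cascade, was lower without overlap (9.06, 11.1 and 8.87 against 7.83, 6.82 and 5.603 CPM). Heat shock genes had -0.08 over 20, with Hsp90ab1 (-0.19 ± 0.07) and Hspa1a (-0.55 ± 0.21) lower. Ribosomal protein genes had 0.03 over 51, with none at an unadjusted p under 0.05. Muscle-secreted signals had -0.02 over 19, with Sparc and the activin chain Inhba (0.95 ± 0.43) higher, and Igf1, the growth factor, at 8.27, 7.11 and 7.09 against 8.53, 4.70 and 5.603 CPM. Genes of the unfolded protein and integrated stress response had 0.12 over 18 and went both ways. Chac1, which degrades glutathione, stood at 61.8, 89.0 and 151.2 against 19.9, 43.7 and 37.3 CPM, while Trib3 (1.37 ± 0.48) and Mthfd2 (0.67 ± 0.31) were higher.

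DNA methylation was the subject of the study from which the series comes. Its writers and erasers had a median of -0.06 over 17 genes, and 1 reached an unadjusted p under 0.05, beside 6.52% of all genes. This was Tet2, which oxidises methylated cytosine, at 54.5, 59.0 and 56.1 CPM in untrained and 36.0, 39.6 and 47.2 CPM in detrained muscle (log2 fold change -0.47 ± 0.18, edgeR adjusted p = 0.713). Its groups did not overlap, as in 2 of the 17 genes, beside 11.9% of all genes. Both counts are near those shares.

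The 9-month difference was set beside that between trained and untrained muscle at 6 months, which shares no library with it, by testing the difference of both in the edgeR fit. It passed for 4 of 14919 genes (0.0268%), the 3 called genes and Trp53i11, and 1414 genes (9.48%) had an unadjusted p under 0.05. For the 26 immediate early genes the median log2 fold change was -0.16 with training at 6 months and -0.89 after detraining at 9 months. For the 39 collagen and matrix genes it was 0.53 and 0.15, for the 16 endothelial markers 0.18 and -0.20, and for the 12 adipocyte markers -0.23 and 0.63. These medians were not tested against each other. The number of called genes ranged from 0 to 26 when single libraries were left out. It was 0 without replicate 2 of 6M_UT, replicates 1 or 2 of 6M_PoW, replicates 2 or 3 of 9M_UT or replicate 3 of 9M_PoW+DT, 1 without replicate 1 of 9M_UT or replicate 2 of 9M_PoW+DT, 7 without replicate 1 of 9M_PoW+DT and 26 without replicate 3 of 6M_UT.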

How the data were processed

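For each of the 15 libraries the authors deposited expected counts by gene in 1 table. Of the values of a 9-month library, 26.9% to 29.8% had a fractional part of any size (no tolerance), and the very large ones (of Myh4 and mt-Co1) carried 3 significant digits. Per the submitters' processing notes, which give no roles, STAR 2.7.3a, DESeq2, Partek and mm10 were used. How reads were counted, whether by strand, and with which annotation was not given in these sources, so genes with near-identical copies, overlapping genes and antisense genes are uncertain. Coordinates are those of the deposited table, counted from 1.

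Expected counts were rounded. Libraries were grouped by title. The 12 libraries of 6M_UT, 6M_PoW, 9M_UT and 9M_PoW+DT entered 1 edgeR 4.0.16 fit (R 4.3.3) with 1 mean per group, filterByExpr, TMM scaling, and the robust quasi-likelihood test with Benjamini-Hochberg adjustment over the 14919 genes tested. The 3 libraries with LD identifiers were not used because their titles and treatment fields conflict. For CPM each count was divided by its library's effective (TMM-scaled) total and multiplied by 1000000. SE is the log2 fold change divided by the square root of its F statistic. Sensitivity alternatives used DESeq2 1.42.0 and limma-voom 3.58.1, other filters and scalings, other sets of libraries, and each library left out in turn. The fit was tested on simulated counts.

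Named genes were the called genes, the 10 higher and 10 lower genes with the smallest unadjusted p (no overlap between groups, average log2 CPM 2 or more, official symbol), up to 4 members of each list with 5 or more tested members at an unadjusted p under 0.05, and 8 fixed genes. The 34 gene lists, the comparison and its members were chosen with earlier results of these data known. Lists are described by counts and medians and were not tested. With 3 libraries a group, only differences well above their spread can be detected, and intervals from counts cover counting error only.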

Additional observations from a re-analysis of the deposited data

Results flagged for a closer look

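In 4 genes the difference between detrained and untrained muscle at 9 months was itself different from that between trained and untrained muscle at 6 months, by the edgeR test of that difference, with an adjusted p of 0.0330 in each. The log2 difference, 9 months minus 6 months, was -6.52 for Tmem232, -3.54 for Nr4a2, -1.82 for Fosl2 and -2.03 for Trp53i11.

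Trp53i11 (chromosome 2, 93187548 to 93201759), a gene named for its induction by p53, is the 1 of the 4 that was not called at 9 months. It stood at 7.99, 8.54 and 6.21 CPM in untrained and 6.31, 3.57 and 3.43 CPM in detrained muscle, which overlap. Its log2 fold change was -0.77 ± 0.22, against 1.26 for training at 6 months. The other 3 genes had log2 fold changes at 6 months of 0.997 (Tmem232), 0.84 (Nr4a2) and 0.43 (Fosl2). None of these 4 changes at 6 months passed the threshold (edgeR adjusted p = 0.0701 for Trp53i11, 0.665 for Tmem232, 0.499 for Nr4a2 and 0.479 for Fosl2). The genes were picked by the adjusted p of the difference, so nothing is read from the signs of its parts.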

How the results depend on the processing

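The 3 calls of the 9-month comparison were 3 with DESeq2's size factors, without mitochondrial genes and with all 15 libraries, 4 without a filter on low counts and 2 with a stricter one, which did not test Tmem232. They became 18 with the 9-month libraries alone and 30 with DESeq2 (24 lower), which both held the 3 genes, and 0 with limma-voom (adjusted p = 0.0795 for all 3 genes, and 954 genes at an unadjusted p under 0.05). With single libraries left out the count ranged from 1 to 6. Tmem232 was called each time, and was the 1 call when replicate 2 of 6M_PoW, replicate 3 of 9M_UT or replicate 3 of 9M_PoW+DT was missing. The 4 genes of the difference from the training comparison became 10 without a filter, 0 with a stricter one (1293 at an unadjusted p under 0.05), 111 with DESeq2 and 0 with limma-voom (1496), and 0 to 26 with single libraries left out. The causes were not tested.

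Deviations from the group means correlated at 0.215, -0.116 and 0.152 for equal replicate numbers, and from -0.278 to 0.137 for unequal ones. These few values do not settle whether replicate numbers pair the libraries. With the replicate number as a block 2 genes were called, Nr4a2 and Tmem232, and 4 for the difference. Fosl2 lost its call there (edgeR adjusted p = 0.116).

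Genes whose log2 fold change was small beside its SE changed sign. Myh7 stood at 0.023 with the replicate block and 1.17 with limma-voom. With single libraries left out, values ranged from -1.09 to 1.84 for Myh7, -0.29 to 0.54 for Ppargc1a, -0.20 to 0.11 for Myh2, -0.12 to 0.28 for Vegfa and -0.24 to 0.13 for Myh4. For fold changes of named genes, 991 values with a library left out and 729 under other settings kept direction and side of the threshold, 5 and 21 became called, and 12 and 4, all of the 3 called genes, lost the call.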
